A study of Mus musculus with 6 samples.

Results

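Polyamine metabolism was examined through 10 genes: Odc1, Amd1, Srm and Sms for synthesis, Oaz1, Oaz2 and Azin1 for control of the Odc1 protein, and Sat1, Smox and Paox for acetylation and oxidation. They were taken by symbol as 10 rows of the 55401 gene rows of the count table, and all 10 were found. The pathway was chosen on the difference of Odc1 between the groups in these same counts, so the differences given here are a description of the selected genes. No other set of libraries was at hand in which they could be tested.

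The study cultured mouse splenic T cells, positively selected with CD8a beads, in supernatant of macrophages. Macrophages came from CD11b+ spleen cells grown with M-CSF at 50 ng/mL for 7 days. In the NFL group (n = 3 libraries) they had been activated with NFL (neurofilament light chain, part of the cytoskeleton of axons), given at 5 μg/mL for 24 hours as a preparation made from freeze-thawed sciatic nerve. In the control group (n = 3 libraries) they had not. The dose and the preparation are those of the labels, and the study's methods name a purchased NFL protein for injection into mice and another dose for co-cultures, so what these macrophages received is not certain. Supernatant made up 50% of the medium, RPMI-1640 with 2% FBS, in both groups, and no other treatment is named for the T cells. The strain, sex and age of the mice of these libraries are not given in the labels, nor is it said that the libraries came from separate cultures, so standard errors and p-values measure the spread between these libraries, which may be technical.

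Total counts were 15843045 to 24639756 per library, at which 3 counts correspond to 0.122 to 0.189 CPM. CPM scales each library to one common total, here after TMM scaling, and is the unit of all levels below. The 10 T cell markers summed to 2116 to 2223 CPM in control and 2085 to 2181 CPM in NFL libraries. Most of this was Thy1 (1572 to 1707 CPM over the 6 libraries) and Trbc1 (340.5 to 376.8 CPM). Of the CD3 genes, Cd3e stood at 49.0 to 64.5 CPM, but Cd3d only at 2.3 to 4.8 CPM and Cd3g at 6.0 to 8.8 CPM. However, Cd8a, the marker the beads select for, stood at only 3.20 to 4.45 CPM (51 to 109 counts) and Cd8b1 at 0.868 to 1.57 CPM (14 to 37 counts), low but above the floor. Cd4, the marker of the other main T cell class, was higher than Cd8a in every library at 23.3 to 27.6 CPM, and Trac, the constant gene of the T cell receptor alpha chain, was at 0.992 to 2.50 CPM. The Cd8a, Cd8b1 and Cd4 levels go against the labelled CD8+ selection, and Cd3d, Cd3g and Trac were low for cells labelled as T cells. Of 9 macrophage markers 5 were at 0 in every library, among them C1qa, Cd14 and Itgam, and their sum of 24.5 to 27.4 CPM in control and 19.2 to 23.4 CPM in NFL libraries was almost all Cd68. B cell markers summed to 2.63 to 3.11 CPM in control and 3.04 to 3.72 CPM in NFL libraries, with Ms4a1 and Ighm at 0. Almost all of this was Cd79a (1.26 to 2.21 CPM over the 6 libraries) and Cd79b (0.877 to 2.04 CPM). Erythroid markers summed to 1.32 to 1.47 CPM in control and 0.987 to 1.99 CPM in NFL libraries, with the 4 globin genes at 0. Most of this was Alas2 (0.871 to 1.86 CPM over the 6 libraries). Natural killer cell markers summed to 458 to 482 CPM in control and 440 to 460 CPM in NFL libraries, mostly Eomes, with Ncr1 and Klra8 at 0. Of the marker genes 3 passed the threshold used below, all lower with NFL: Cd3e (log2 fold change -0.28, adjusted p = 5.7e-04 in edgeR), Cd68 (-0.26, adjusted p = 0.049) and Klrb1c (-0.51, adjusted p = 2.4e-06). Their part in the results was not tested. In bulk RNA, fewer cells of a type and less RNA per cell cannot be told apart.

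Polyamines (putrescine, spermidine and spermine) are small positively charged molecules that bind nucleic acids and are needed for growth and translation. Ornithine decarboxylase, encoded by Odc1, makes putrescine from ornithine and is the first committed step. Amd1 decarboxylates S-adenosylmethionine to supply aminopropyl groups, which Srm and Sms add to make spermidine and then spermine. Antizymes bind ornithine decarboxylase and hand it to the proteasome, and are themselves made by a ribosomal frameshift that polyamines promote. Activated T cells are known to induce Odc1 and to depend on polyamines to proliferate.

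The Odc1 promoter is shown first because Odc1 carried the difference, and the printed stretch is the part of its RefSeq window (GRCm38.p6) that lies upstream of the outermost annotated start, at chr12:17544623-17544807 on the plus strand. Capitals mark GC boxes, GGGCGG read on either strand.
Odc1 promoter: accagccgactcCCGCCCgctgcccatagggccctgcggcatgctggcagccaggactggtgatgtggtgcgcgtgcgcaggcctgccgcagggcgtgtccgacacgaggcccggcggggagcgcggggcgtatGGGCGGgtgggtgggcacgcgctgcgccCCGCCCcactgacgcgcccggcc
It holds 3 GC boxes in 185 bases, and the full 300-base window, from 250 bases before to 50 bases after the start, holds 4 and has a GC content of 78.0%. The median GC content of all 32851 windows was 52.7%. RefSeq windows were found for 8 of the 10 genes (not Srm or Azin1). The GC box was present in 7 of these 8, against 38.2% of the 27025 genes with a window. It was missing from Oaz1, whose window instead held TATAAA, present in 15.7% of genes. The E-box CACGTG, the sequence bound by Myc and Max, was found for Sms alone, against 8.09% of genes, while CCAAT was found for Sms and Oaz1 against 41.1%, and the kB motif, bound by NF-κB, for the same 2 genes against 9.55%. All motifs were searched on both strands. A gene with several windows, as Sms and Paox had, counted if any of them held a match. The shares are over all genes with a window, whether or not they had counts here, and were not matched for GC content. Windows of the polyamine genes had 50.3% to 78.0% GC, so the shares do not show a trait of the pathway. A match describes letters and does not show a bound site, and its absence says only that the letters are not in the window.

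The antizyme frameshift sites are shown because these genes are controlled mainly when they are translated, a step that read counts do not record. Both stretches are 51 bases of exon in GENCODE M21 (GRCm38), with capitals marking the codon TCC followed by the stop codon TGA, where the ribosome must shift by 1 base to go on. The Oaz1 stretch lies at chr10:80828268-80828318 and the Oaz2 stretch at chr9:65686245-65686295, both on the plus strand.
Oaz1 frameshift site: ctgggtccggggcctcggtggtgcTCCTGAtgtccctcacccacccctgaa
Oaz2 frameshift site: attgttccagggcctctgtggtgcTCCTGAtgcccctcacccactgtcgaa
The stretches were identical at 41 of 51 bases.

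Among the 10 genes, Odc1 was the one that stood apart. Its level (ENSMUSG00000011179.8) was 1153, 1159 and 1150 CPM in control libraries 1, 2 and 3, and 1467, 1503 and 1485 CPM in NFL libraries 1, 2 and 3. All NFL libraries lay above all control libraries, and the gap was far wider than the spread inside either group. The means were 1154 ± 4.76 (SD, n = 3) and 1485 ± 18.0 CPM (SD, n = 3), a fold of 1.29 (95% interval 1.24 to 1.33) and a log2 fold change of 0.36 (SE 0.0253). Odc1 was the 44th to 46th most counted gene of a control library and the 35th or 36th of an NFL library. It took up 0.115% to 0.117% of all counts in control and 0.146% to 0.150% in NFL libraries. No annotated exon of another gene overlapped its exons.

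Of the 14082 genes kept by the filter, 986 (7.00%) passed an adjusted p threshold of 0.05 in edgeR's quasi-likelihood test, 489 higher with NFL (3.47%) and 497 lower (3.53%). Of the 10 polyamine genes 9 were kept and 1, Odc1, passed the threshold, as higher. Since Odc1's difference selected the pathway, nothing is read from that count. The median log2 fold change of the 9 genes was 0.04, and of all tested genes -0.00099. With Odc1 set aside, a step chosen after its value was seen, none of 8 passed in edgeR, DESeq2 or limma-voom. Their median log2 fold change was 0.03. The groups did not overlap for 3 of the 9, all higher with NFL, beside 22.7% of all tested genes. By fold change Odc1 was not extreme, placing 708th of 14082 from the top. Among the 145 genes within 1 log2 unit of its mean level, of which 36.6% passed the threshold, it was the third, and Lta (lymphotoxin alpha) had the largest change at a log2 fold change of 0.68.

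**Figure D1:**
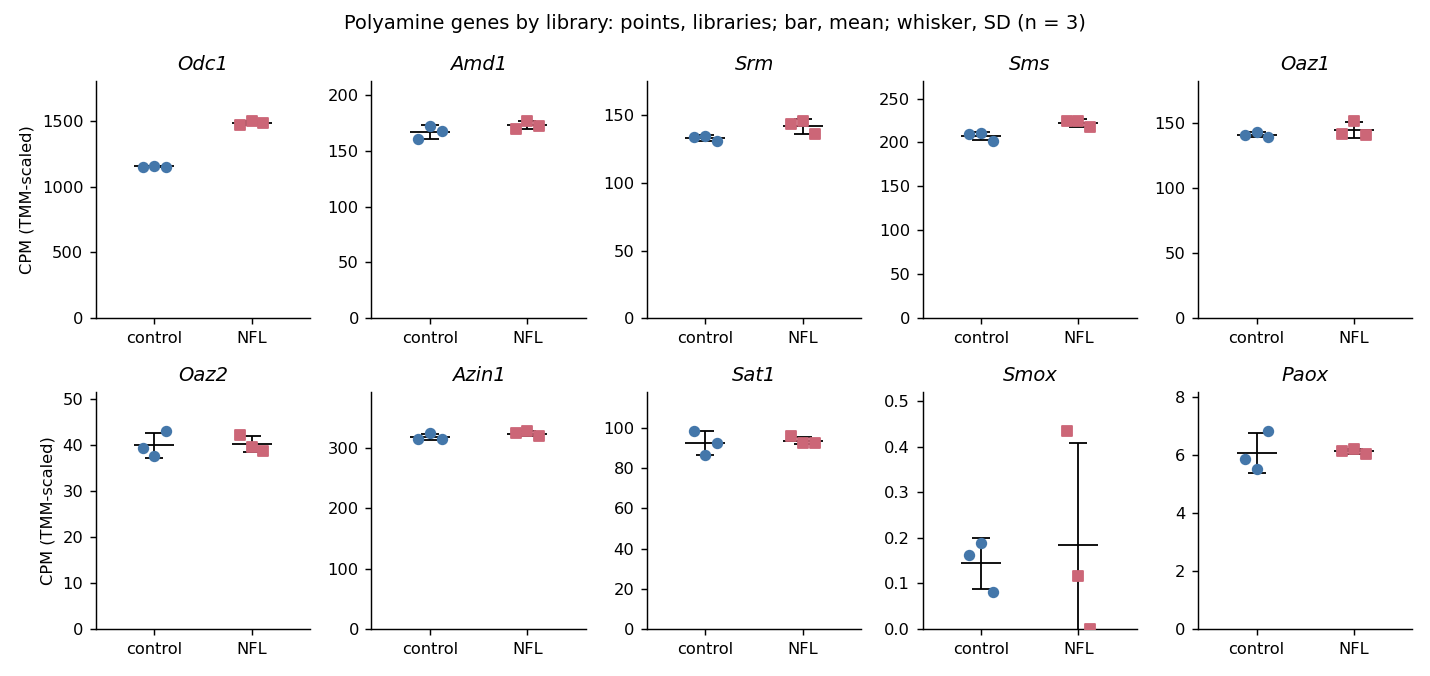
Levels of the 10 polyamine genes in CPM (vertical axes, TMM-scaled, each from 0 and on its own scale) in the control and NFL libraries. Points are libraries, the long bar is the mean and whiskers are the SD (n = 3); the Odc1 points lie at 1150 to 1159 CPM in control and 1467 to 1503 CPM in NFL libraries, and of the other genes only Srm and Sms show groups that do not overlap.

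**Figure D2:**
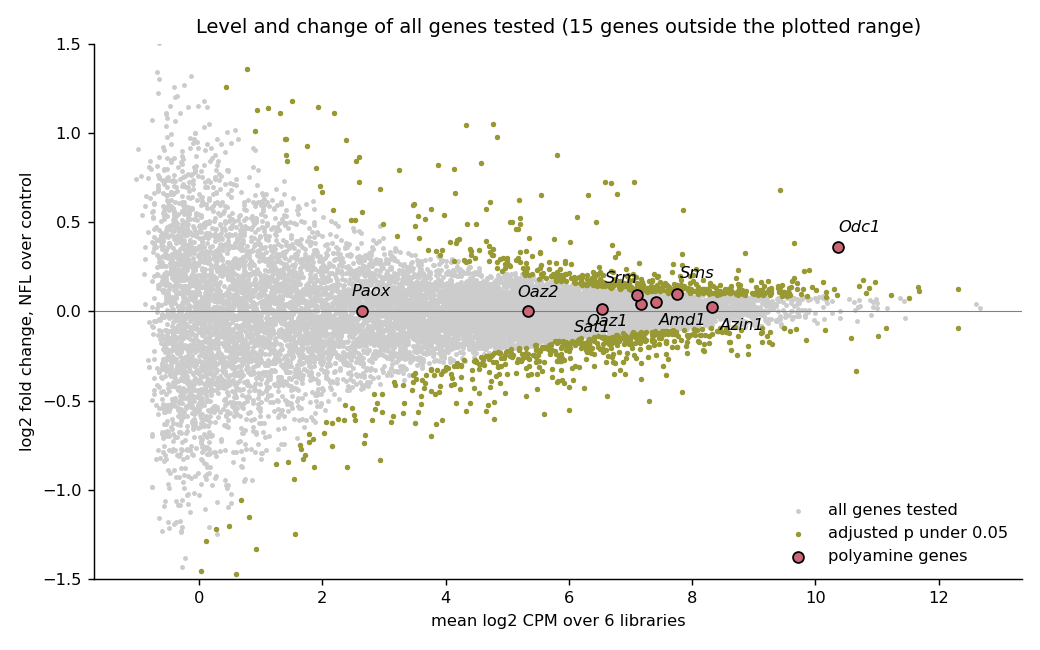
Log2 fold change, NFL over control (vertical axis), against mean log2 CPM over 6 libraries (horizontal axis) for all tested genes except 15 outside the plotted range. Odc1 lies at the high end of the level axis at a log2 fold change of 0.36, and the other 8 tested polyamine genes lie between 0.0024 and 0.10.

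The remaining synthesis genes differed by little. Sms, the spermine synthase gene, was at 209.7, 211 and 202 CPM in control and 225, 224 and 217 CPM in NFL libraries. All NFL values lay above all control values, and the log2 fold change was 0.10 (SE 0.0329, 95% interval 0.03 to 0.16, adjusted p = 0.056 in edgeR). It passed the threshold in 3 of 14 alternatives, namely without control replicate 2 (adjusted p = 0.030), with counts thinned to the smallest library (0.038) and with the replicate number as a block (0.047). Srm, the spermidine synthase gene, was at 134, 135 and 131 CPM in control and 144, 146 and 136 CPM in NFL libraries. Its groups were also apart, with NFL replicate 3 only just above the highest control library, and the log2 fold change was 0.09 (SE 0.0379, 95% interval 0.01 to 0.17, adjusted p = 0.16 in edgeR). Amd1 was at 160.4, 172 and 168 CPM in control and 169.6, 177 and 172 CPM in NFL libraries. Its groups overlapped, with a log2 fold change of 0.05 (SE 0.0355, 95% interval -0.02 to 0.13, adjusted p = 0.45 in edgeR). For each of these 3 genes, the upper end of the interval lay below the lower end of that of Odc1, 0.31. The Odc1 interval is not corrected for the choice of the pathway on its difference, so nothing is read from this order. No test of the difference between genes was made.

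Amd1, Sms and Oaz1 have near-identical copies elsewhere in the genome, and how reads that match several copies were counted is not given in the sources used here. Rows of 6 such copies were found, and their levels were low. The symbols Odc-ps1, Odc1-ps and Srm-ps1 were looked up too and had no row. Copies of Odc1 or Srm under other symbols were not searched, so the same limit may hold for these genes. Amd2, an intronless copy of Amd1, held 16, 10 and 19 counts in control and 23, 31 and 19 counts in NFL libraries. Its libraries touched in count but were apart in CPM, 0.684 ± 0.0808 against 1.43 ± 0.362 (SD, n = 3), with a log2 fold change of 1.05 that did not pass the threshold (SE 0.380, adjusted p = 0.087 in edgeR). Sms-ps held 62 counts over the control and 84 over the NFL libraries (adjusted p = 0.18) and Oaz1-ps 54 and 54 (adjusted p = 0.70). Amd-ps4 held 30 and 33 counts (adjusted p = 0.64), Amd-ps3 held 11 and 22 and was not tested, and Amd-ps1 was at 0. All 4 tested copies had log2 fold changes above 0, and none passed the threshold. None of the copies found had a group mean above 1.63 CPM.

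The genes that control the Odc1 protein were close to level. Oaz1, the main antizyme, was at 141, 143 and 139 CPM in control and 142, 152 and 141 CPM in NFL libraries. Its groups overlapped, NFL replicate 2 was the highest library, and the log2 fold change was 0.04 (SE 0.0376, 95% interval -0.04 to 0.11). Azin1, the antizyme inhibitor, a decarboxylase-like protein without enzyme activity that sequesters antizyme, was at 316, 324 and 315 CPM in control and 324, 328 and 319 CPM in NFL libraries. These groups overlapped as well, with a log2 fold change of 0.02 (SE 0.0301, 95% interval -0.04 to 0.09). Oaz2, a second antizyme, had means of 40.0 ± 2.74 and 40.2 ± 1.82 CPM (SD, n = 3) and a log2 fold change of 0.0024 (SE 0.0645, 95% interval -0.13 to 0.13). Adjusted p-values in edgeR were 0.64 for Oaz1, 0.73 for Azin1 and 0.99 for Oaz2. Azin1 shares 358 exonic bases with the antisense gene Gm49077 and Oaz1 shares 74 with the microRNA gene Mir1982, and the use of strand in counting is not given in the sources used here.

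The acetylation and oxidation genes, which lead spermine and spermidine back to putrescine, gave no difference past the threshold. Sat1, the acetyltransferase that starts this route, was at 98.4, 86.5 and 92.4 CPM in control and 95.8, 92.6 and 92.7 CPM in NFL libraries. The NFL values lay inside the control range, with a log2 fold change of 0.01 (SE 0.0452, 95% interval -0.08 to 0.11, adjusted p = 0.92 in edgeR). Paox, the oxidase of acetylated polyamines, was counted 145, 88 and 167 times in control and 99, 107 and 107 times in NFL libraries, and had means of 6.07 ± 0.676 and 6.13 ± 0.0797 CPM (SD, n = 3). Its log2 fold change was 0.0049 (SE 0.150, 95% interval -0.30 to 0.31, adjusted p = 0.99 in edgeR), the widest interval of the tested polyamine genes, and 142 of its exonic bases are shared with antisense Echs1. Smox, the spermine oxidase gene, was counted 4, 3 and 2 times in control and 7, 2 and 0 times in NFL libraries. With 9 counts in each group it did not pass the filter, and a difference was not detectable at this depth.

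Per kilobase of exon (GENCODE M21, 9 genes with an identical identifier, Amd1 not among them), Odc1 was the highest of the polyamine genes at 339 CPM per kb in control and 436 CPM per kb in NFL libraries. Srm followed at 83.3 and 88.7, Oaz1 at 55.2 and 56.7 and Azin1 at 50.9 and 51.7 CPM per kb. Lengths were those of the merged exons of all annotated transcripts of a gene, so the order below Odc1 depends on the annotation. In CPM without lengths, the control means of Sms (207.6) and Oaz1 (141.3) lay above that of Srm (133.2). Separation of libraries in the order does not bear on the lengths. In control libraries, Sms (33.6 to 35.1 CPM per kb) and Sat1 (31.2 to 35.5 CPM per kb) overlapped, while every other neighbouring pair in this order was apart. In NFL libraries, Sms (36.2 to 37.4 CPM per kb) was above Sat1 (33.4 to 34.5 CPM per kb). Oaz2 came next at 13.4 and 13.5, Paox at 1.24 and 1.25 CPM per kb, and Smox last at 0.0370 and 0.0471 CPM per kb.

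Ratios of counts inside a library do not depend on scaling, and they place Odc1 against its partners. Odc1 had 8.16, 8.09 and 8.26 counts for each Oaz1 count in control libraries and 10.3, 9.87 and 10.5 in NFL libraries. For each Sat1 count, it had 11.7, 13.4 and 12.5 in control and 15.3, 16.2 and 16.02 in NFL libraries. For each Srm count, it had 8.61, 8.60 and 8.78 in control and 10.2, 10.3 and 10.9 in NFL libraries. In all 6 ratios computed, those to Azin1, Amd1 and Sms included, every NFL library lay above every control library. The mean ratios to Azin1 were 3.63 ± 0.0438 and 4.59 ± 0.0632, to Amd1 6.93 ± 0.233 and 8.59 ± 0.0845, and to Sms 5.56 ± 0.113 and 6.68 ± 0.156 (SD, n = 3, control and NFL). These ratios rest on the same difference of Odc1 and were not tested. Odc1 made up 51.0% to 51.2% of the counts on the 10 genes in control and 56.1% to 56.9% in NFL libraries. The other 9 genes together were at 1098 to 1115 CPM in control and 1123 to 1166 CPM in NFL libraries.

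**Figure D3:**
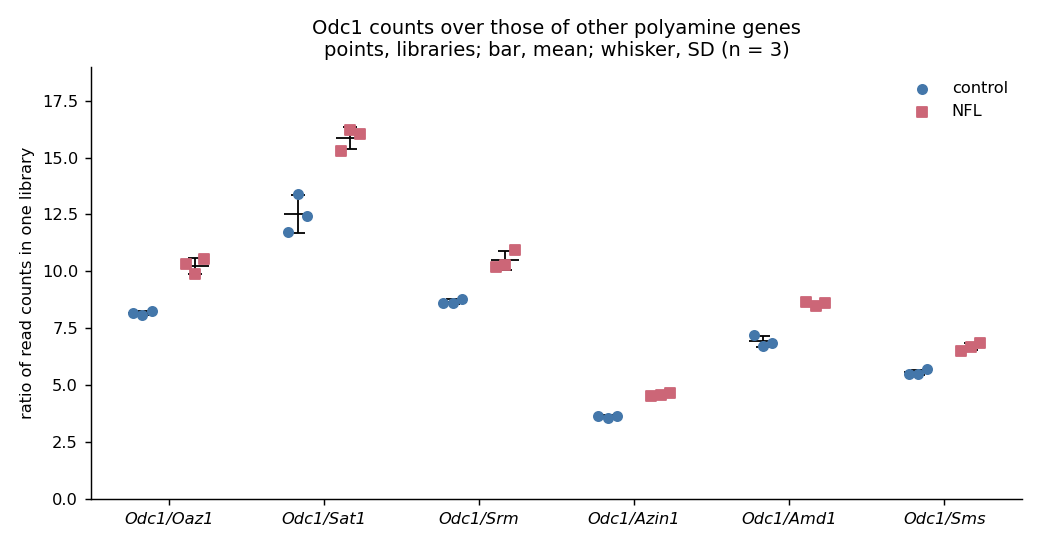
Ratio of Odc1 counts to the counts of 6 other polyamine genes within each library (vertical axis, no unit, from 0), control and NFL. Points are libraries, bars are means and whiskers SD (n = 3); in each pair the NFL points lie above the control points, from 8.09 to 8.26 against 9.87 to 10.5 for Oaz1.

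Outside the 10 genes, 41 further genes of the wider pathway were in the table and 25 could be tested. The other 16 were low, 6 of them at 0 in every library and the most counted at 66 counts over the 6 libraries. Of the 25 tested genes, 2 passed the threshold as higher with NFL and 1 as lower, 3 of 25 beside the 7.00% of all genes. Their median log2 fold change was 0.0094. The groups did not overlap for 9 of the 25, 4 higher and 5 lower with NFL, beside 22.7% of all tested genes. These genes were listed with earlier results of the same data known, so nothing is read from either count. The genes that passed were Eif5a, Mat2a and Atp13a2. Eif5a and Mat2a lie within 1 log2 unit of the mean level of Odc1, where 36.6% of 145 genes passed. Spermidine is the source of hypusine, the modified lysine of the translation factor eIF5A. Eif5a, the gene of that factor, was at 897, 889 and 856 CPM in control and 1003, 1056 and 1039 CPM in NFL libraries. It rose with NFL, by 0.23 on the log2 scale (SE 0.0273, 95% interval 0.18 to 0.29, adjusted p = 1.4e-08 in edgeR), and the groups were apart. The enzymes that make hypusine did not pass the threshold, with log2 fold changes of 0.14 (SE 0.100, adjusted p = 0.49) for Dhps and 0.03 (SE 0.173, adjusted p = 0.95) for Dohh in edgeR. The Dhps groups were apart, higher with NFL. Dhps shares 128 exonic bases with the antisense gene Wdr83, and Dohh 972 with Gm48551. Eif5a2, the second eIF5A gene, had means of 125.7 ± 2.33 and 125.7 ± 3.58 CPM (SD, n = 3).

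Mat2a, which makes the S-adenosylmethionine that Amd1 consumes, was at 737, 719 and 770 CPM in control and 816, 808 and 821 CPM in NFL libraries. It rose with NFL by 0.13 on the log2 scale (SE 0.0278, 95% interval 0.08 to 0.19, adjusted p = 7.7e-04 in edgeR), and its libraries did not overlap. It shares 508 exonic bases with the antisense gene Particl. The other 6 tested genes of the methionine cycle and of methylthioadenosine salvage, which recycles the by-product of Srm and Sms, did not pass the threshold. Among these, the log2 fold change was 0.0094 for Mtap, 0.04 for Mat2b and -0.05 for Adi1.

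Atp13a2, a lysosomal pump that exports polyamines into the cytosol, was counted 89, 49 and 94 times in control and 29, 30 and 35 times in NFL libraries. In CPM it stood at 3.61, 3.07 and 3.84 in control and 1.80, 1.74 and 1.98 in NFL libraries, without overlap. It fell by 0.94 on the log2 scale (SE 0.239, 95% interval -1.42 to -0.46, adjusted p = 0.0080 in edgeR), from a low level, and DESeq2 gave no adjusted p for it. The abundant transport genes did not pass the threshold, and their log2 fold changes were 0.07 for Atp13a3 (adjusted p = 0.20), -0.02 for Slc3a2 and 0.02 for Slc7a1 in edgeR. The Atp13a3 groups were apart, higher with NFL. Of 11 transport genes 6 were tested, and the other 2 of these were low and lower with NFL without overlap. Atp13a4, a relative of Atp13a2 named here after its values were seen, was at 4.14, 3.51 and 4.54 CPM in control and 2.92, 2.79 and 2.38 CPM in NFL libraries (log2 fold change -0.61, SE 0.208, 95% interval -1.02 to -0.19, adjusted p = 0.065 in edgeR), and passed the threshold only without control replicate 2. Gpc1, also named after its values were seen, held 45 counts over the control and 24 over the NFL libraries (log2 fold change -0.55, SE 0.475, adjusted p = 0.60 in edgeR) and shares 977 exonic bases with antisense Ankmy1.

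Genes that supply ornithine gave no call among the 4 tested of 8. Aldh18a1, which makes the glutamate-derived precursor of ornithine, was at 274, 309.5 and 271 CPM in control and 286, 255 and 261 CPM in NFL libraries, overlapping (log2 fold change -0.09, adjusted p = 0.17 in edgeR). It passed only without control replicate 3 or without NFL replicate 1. Slc25a15, the mitochondrial ornithine carrier, had a log2 fold change of -0.09 (adjusted p = 0.18 in edgeR). Its groups were apart, at 115.2 to 117.9 CPM in control and 108.9 to 110.6 CPM in NFL libraries. Oat, the aminotransferase that makes or uses ornithine, had a log2 fold change of 0.05 (adjusted p = 0.50 in edgeR). Of the genes listed as regulators of Odc1, the 3 tested had log2 fold changes below 0. Myc, whose protein activates Odc1 transcription through E-boxes, was at 106.5, 113 and 113 CPM in control and 107, 106 and 105 CPM in NFL libraries. Its groups overlapped (log2 fold change -0.06, SE 0.0408, 95% interval -0.15 to 0.02, adjusted p = 0.43 in edgeR). Mycn, a relative of Myc, was at 91.2, 92.3 and 86.1 CPM in control and 81.4, 82.4 and 82.2 CPM in NFL libraries, apart but not past the threshold (log2 fold change -0.13, SE 0.0450, adjusted p = 0.069 in edgeR). It did pass with library size alone as the scaling and without control replicate 3. Max, the partner of both, had a log2 fold change of -0.04 (adjusted p = 0.63 in edgeR).

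**Figure D4:**
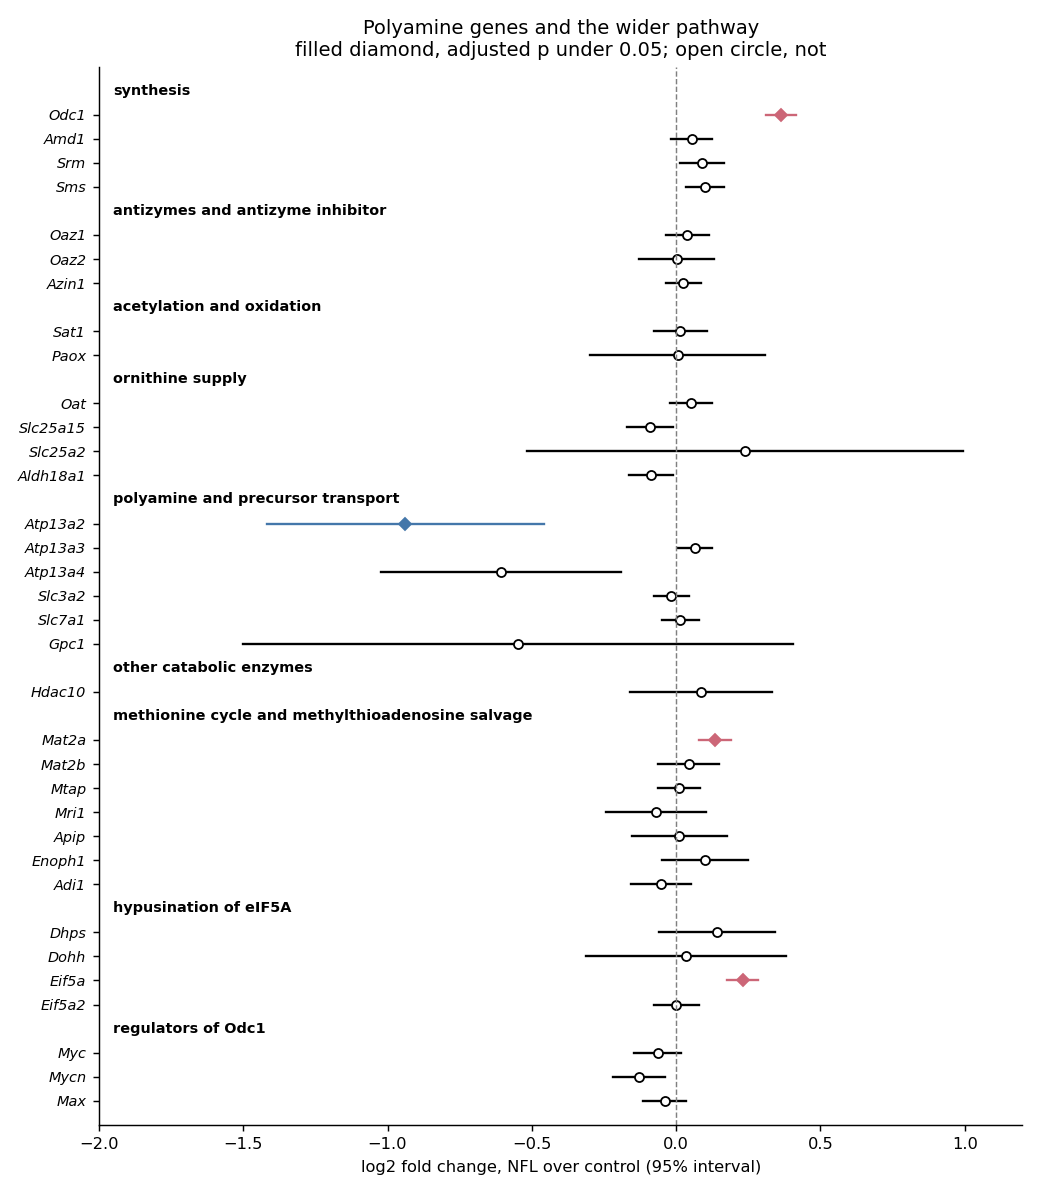
Log2 fold change, NFL over control (horizontal axis), with 95% intervals for the 9 tested polyamine genes and the 25 tested genes of the wider pathway, grouped by role. Filled diamonds passed the adjusted p threshold of 0.05 (Odc1, Eif5a and Mat2a higher, Atp13a2 lower with NFL) and open circles did not.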

How the data were processed

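RNA of 6 libraries labelled as mouse T cells was measured by poly(A)-selected Illumina sequencing. The authors deposited raw read counts per gene, without normalization or pooling. Their processing notes name GRCm39, R 4.2.1 and limma 3.54.2, without roles. The aligner, counter, annotation release and strand setting are not given in the sources used here. Since 54349 of 55401 identifiers were identical to GENCODE M21 (GRCm38), exon lengths and overlaps came from that release, and no gene coordinates are given except those of the printed sequences. Symbols covered 55141 rows. The labels gave the groups, and 0 count columns lacked a sample.

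Counts were analysed in R 4.3.3 with edgeR 4.0.16. Genes kept by filterByExpr (minimum count 10, minimum total count 15) went through TMM scaling and edgeR's quasi-likelihood test (glmQLFit, glmQLFTest) on group alone, with Benjamini-Hochberg adjustment over 14082 genes and a threshold of 0.05. SE was the absolute log2 fold change over the square root of F. The common dispersion was 0.00121. The fit was tested on simulated counts that gave every gene the common dispersion. That does not show how it behaves where genes differ in dispersion. Exact permutation of 3 against 3 libraries has a smallest two-sided p of 0.1 and was not used. Within-group pairs of libraries differed by more than sampling noise (chi-square per degree of freedom 1.88 to 3.42), so none was treated as a library deposited more than once; this does not show separate cultures. Alternatives used DESeq2 1.42.0 and limma 3.58.1.

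The 10 genes, the lists of 41 further pathway genes and the marker lists were chosen with earlier results of these data known. Named genes were the 10, every listed gene past the threshold, up to 3 others per list by highest mean CPM, and copies of the 10. Sequences came from RefSeq and GENCODE tables. Figures were drawn with matplotlib 3.10.9.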

Additional observations from a re-analysis of the deposited data

How the results depend on the processing

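Odc1 kept a log2 fold change of 0.35 to 0.37 in all 14 alternatives, with an adjusted p of at most 3.1e-11 over the tests used. Its difference selected the pathway, and the alternatives refit these same libraries. They describe dependence on the processing and are no independent support for the difference. Eif5a and Mat2a also stayed past the threshold in all 14. Atp13a2 stayed past it in the 13 that gave an adjusted p; DESeq2 gave none. Of the 10 genes, 2 instead of 1 passed with the replicate number as a block, with counts thinned to the smallest library, and without control replicate 2, each adding Sms. Leaving out 1 library at a time gave 1 to 2 of the 10 genes, 3 to 5 of the wider pathway (5 without control replicate 3, where Aldh18a1 and Mycn entered) and 508 to 966 of all genes (508 without NFL replicate 3 and 616 without NFL replicate 2). Of all genes, 31 passed once the change also had to reach 1 on the log2 scale in either direction, and Odc1 was not among them. Same-numbered libraries did not deviate together (r = -0.006, 0.031 and 0.073 over 6312 genes), so the numbers were not taken as pairs; the block gave 1049 genes against 986. Signs near 0 were not stable. Oaz2 turned to -0.0115 with library size alone and -0.0025 with limma-voom, and ranged from -0.0315 to 0.0588 with 1 library left out. Paox turned to -0.0090 with library size alone and ranged from -0.0484 to 0.0996, and Sat1 ranged from -0.0238 to 0.0651. The cause of these changes was not tested. Under library size alone 7 of the 9 tested genes, instead of 9, lay above 0. Limits are 3 libraries a group, 9 counts of Smox in each group, and RNA levels alone, which say nothing of antizyme frameshifting, enzyme activity or polyamine content.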
